A study of Mus musculus with 2 samples.

Results

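Tspan3, Tbc1d4, Art2b and Lysmd2 were followed in donor T cells taken from the spleens of mice 7 and 14 days after an allogeneic transplant, a model of graft-versus-host disease. They are 4 of the 32285 genes in the count tables and were found there by symbol, each in a single row (ENSMUSG00000032324, ENSMUSG00000033083, ENSMUSG00000030651 and ENSMUSG00000032184). The 4 genes were chosen by their UMIs in these 2 libraries, with the difference between the days already known, so the ratios of day +14 over day +7 describe them and are given with no test. Lethally irradiated BALB/c (H-2d) recipients had received T cell-depleted bone marrow and wild-type splenic T cells of C57BL/6 (H-2b) donors, and both library names carry the letters PBS. The methods of the study describe age-matched young adult females, but also state that mice of both sexes were used in vivo. Live CD45+ H2Kb+ H2Kd- TCRβ+ cells of several spleens were pooled and loaded on the 10X Genomics platform, with 1 library for day +7 and 1 for day +14. The protocol text of both samples names a sort on day +7, and the day was therefore taken from the sample titles. With 1 pool of mice per day, every interval below is a 95% interval for counting error only, and the day, the pool and the library cannot be told apart.

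The proteins differ in what they do. Tspan3 encodes a tetraspanin, a membrane protein with 4 transmembrane spans that gathers partner proteins into membrane domains. Tbc1d4 encodes AS160, a GTPase-activating protein for Rab proteins that Akt phosphorylates, best known for holding glucose transporter vesicles inside fat and muscle cells until insulin acts. Art2b encodes a GPI-anchored ecto-ADP-ribosyltransferase of mouse T cells, which uses extracellular NAD to modify surface proteins such as the ion channel P2X7 and can be shed from activated T cells. Lysmd2 encodes a small protein with a LysM domain, a fold that binds glycans in bacteria and plants, and its role in T cells is little known.

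In GRCm38 with the GENCODE M21 annotation, Tspan3 lies at chr9:56131725-56165477 on the minus strand, and its longest transcript has 6 exons. Tbc1d4 occupies chr14:101442360-101609191 on the minus strand with 19 exons, and the processed pseudogene Gm34417, which is not in the count table, sits inside it on the same strand. Art2b is at chr7:101576970-101585600 on the minus strand with 4 exons. Its neighbour Art2a-ps, at chr7:101552453-101560865, has no row in the table and was 87.1% identical to Art2b over 1191 aligned bases. In the last 500 bases of the 2 Art2b transcripts, 0% and 7.98% of windows of 50 bases also occurred in Art2a-ps, so reads of this pair could be partly shared and the Art2b values carry that uncertainty. Lysmd2 is at chr9:75625741-75637771 on the plus strand with 3 exons.

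The 250 bases before the RefSeq start site (GRCm38.p6) were available for 3 of the 4 genes. They are shown because the genes were higher together at day +14, and they run 5′ to 3′ on the minus strand, which is the gene strand of each. Capitals mark matches to the motifs searched on both strands.
Tspan3, chr9:56161071-56161320: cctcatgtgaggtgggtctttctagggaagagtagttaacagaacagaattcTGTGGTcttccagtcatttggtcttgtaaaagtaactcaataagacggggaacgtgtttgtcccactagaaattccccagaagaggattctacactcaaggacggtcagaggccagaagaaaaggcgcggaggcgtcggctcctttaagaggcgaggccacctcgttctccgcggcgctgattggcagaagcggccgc
Tbc1d4, chr14:101609192-101609441: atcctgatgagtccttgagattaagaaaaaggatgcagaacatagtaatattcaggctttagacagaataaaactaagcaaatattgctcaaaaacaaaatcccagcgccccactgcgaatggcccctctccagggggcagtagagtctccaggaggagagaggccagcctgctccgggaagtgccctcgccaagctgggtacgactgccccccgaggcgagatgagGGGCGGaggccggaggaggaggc
Art2b, chr7:101581162-101581411: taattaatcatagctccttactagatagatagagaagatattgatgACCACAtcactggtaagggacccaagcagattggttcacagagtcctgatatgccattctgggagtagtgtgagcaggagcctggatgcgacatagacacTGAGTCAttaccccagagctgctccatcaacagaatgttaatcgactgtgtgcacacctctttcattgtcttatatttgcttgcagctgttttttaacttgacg

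Tspan3 held the RUNX letters TGTGGT with their first base at -198, counted from the start site, and Art2b held them on the other strand, printed as ACCACA, at -204. The same letters occur in 14.0% of all 32851 RefSeq promoters of this length. Art2b also held the AP-1 letters TGANTCA, which read alike on both strands, at -104. They occur in 6.75% of all promoters. Tbc1d4 held the GC box GGGCGG at -23, a sequence of 32.7% of promoters. None of these 3 windows held the TCF/LEF letters CTTTGAA (4.46% of all promoters), the NFAT letters GGAAANT (15.3%), the T-box letters GGTGTGA (3.33%) or the TATA box TATAAA (12.4%). No motif was shared by all of the 3 windows. For Tspan3 and Art2b the RefSeq start, where the window ends, lies inside the longer GENCODE gene. The bases that follow the start were found in a GENCODE transcript for Art2b and Tbc1d4, but not for Tspan3.

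The libraries held 87124828 UMIs in 7355 barcodes at day +7 and 84233811 UMIs in 8043 barcodes at day +14. Barcodes with 500 to 7500 genes and at most 15% mitochondrial UMIs numbered 7179 and 7794. Of these, 6941 and 7609 passed a T cell gate of at least 3 UMIs of the CD3 and TCR constant genes, with a median of 9176 and 8220 UMIs per cell. A total of 20 barcode sequences occurred in both libraries. T cells in which Cd8a or Cd8b1 but not Cd4 was detected were called CD8. Those in which Cd4 was detected, but neither a CD8 gene nor Foxp3, were called conventional CD4, abbreviated CD4 from here on. CD8 cells numbered 5963 and 5980 and CD4 cells 457 and 694. Levels are given as CPM, the UMIs of a gene summed over the cells of a gate, per 1000000 UMIs of those cells. Within the T cell gate, the B cell list summed to 20.5 CPM at day +7 and 3.15 at day +14, with 1 of its 4 genes at 0 UMIs at day +7. The NK cell list of 2 genes went from 7.08 to 0.728 CPM, the neutrophil list of 6 from 54.5 to 46.5 CPM, the macrophage list of 5 from 30.7 to 24.9 CPM and the erythroid list of 10 from 11.9 to 18.0 CPM, with no gene at 0. The part of such RNA in the values below was not tested.

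All 4 genes were higher at day +14 across the T cells. Tspan3 had 1143 UMIs at day +7 and 5320 at day +14, that is 14.0 CPM (13.2 to 14.8) and 64.5 CPM (62.8 to 66.3). The day +14 library was the higher by 4.62-fold, a log2 ratio of 2.21 (2.11 to 2.30). Lysmd2 stood at 10.9 CPM (889 UMIs) and 48.5 CPM (3999 UMIs), which is 4.46-fold or 2.16 on the log2 scale (2.05 to 2.26). These were close to each other in size. Tbc1d4 had 9.83 CPM (804 UMIs) and 37.8 CPM (3116 UMIs), a 3.84-fold difference and a log2 ratio of 1.94 (1.83 to 2.06). With equal weight for each of the 4 gates below, its log2 ratio was 1.09, close to that of Art2b at 1.06. Art2b had 17.1 CPM (1396 UMIs) and 42.4 CPM (3500 UMIs), a 2.49-fold difference and a log2 ratio of 1.31 (1.22 to 1.40). In every gene the intervals of the CPM at the 2 days did not overlap, which is no test, since the genes were chosen with this difference known.

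Over all T cells, 6874 genes had a mean of at least 10 CPM, and 132 of them (1.92%) were at least 2-fold higher at day +14 on the log2 scale with 1 CPM added. The 4 genes were among these 132, a count fixed by how they were chosen. Counted from the highest ratio, Tspan3 ranked 19, Lysmd2 21, Tbc1d4 33 and Art2b 74. The median log2 ratio of the 6874 genes was 0.19, and relative to it the ratios with 1 CPM added were 1.94 for Tspan3, 1.87 for Lysmd2, 1.65 for Tbc1d4 and 1.08 for Art2b.

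**Figure D1:**
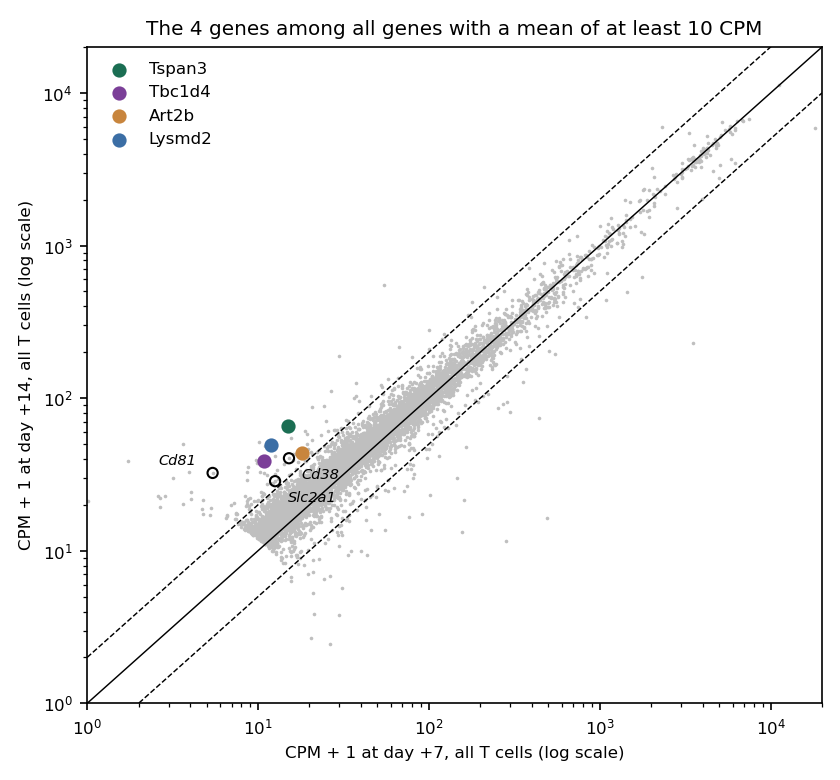
CPM plus 1 of all 6874 genes at day +7 (x axis) and day +14 (y axis) over all T cells, on log scales. The solid line marks equal levels, the dashed lines a 2-fold difference, filled points the 4 genes and open circles 3 related genes. All 4 genes lie above the upper dashed line, Tspan3 at 14.0 and 64.5 CPM and Art2b, the closest to the line, at 17.1 and 42.4 CPM.

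In CD8 cells, all 4 genes were higher at day +14 in cycling and in non-cycling cells. Cells with at least 5 UMIs of 20 cell cycle genes per 10000 UMIs were called cycling. This gave 4295 and 4480 cycling CD8 cells and 1668 and 1500 non-cycling ones at day +7 and day +14, and 512 and 569 T cells lay near this limit, at 4 to 6 per 10000. Of all genes tested, 1.69% were at least 2-fold higher at day +14 in cycling CD8 cells and 3.85% in non-cycling CD8 cells, and the 4 genes were among these in both, as their choice implies. Tspan3 went from 13.0 to 56.3 CPM in cycling CD8 cells and from 12.6 to 65.4 CPM in non-cycling ones. Lysmd2 went from 10.3 to 51.3 CPM and from 13.0 to 63.1 CPM. Neither gene differed by more than 1.26-fold between non-cycling and cycling CD8 cells on a given day. Tbc1d4 was at 4.03 and 26.1 CPM in cycling CD8 cells, a log2 ratio of 2.70 (2.50 to 2.90), and at 13.7 and 60.7 CPM in non-cycling ones, a log2 ratio of 2.14 (1.89 to 2.41). Art2b was at 13.7 and 36.7 CPM in cycling cells and at 21.9 and 61.8 CPM in non-cycling cells, with log2 ratios of 1.42 (1.30 to 1.54) and 1.49 (1.28 to 1.71).

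In CD4 cells, Tspan3 kept a ratio like that in CD8 cells, and the other 3 genes had smaller ones. Of the T cells at day +7 and day +14, CD8 cells made up 85.9% and 78.6% and CD4 cells 6.58% and 9.12%. The difference known when the genes were chosen thus rests mostly on CD8 cells. Smaller ratios in CD4 cells may partly follow from that choice, which was not tested. Cycling CD4 cells numbered 261 and 348 and non-cycling ones 196 and 346. At least 2-fold higher at day +14 were 3.3% of the genes tested in cycling CD4 cells and 9.02% in non-cycling CD4 cells, and Tspan3 was the member among them in both. Tspan3 went from 18.3 to 102 CPM in cycling CD4 cells, a log2 ratio of 2.47 (2.07 to 2.89). In non-cycling CD4 cells it went from 21.3 to 132 CPM, a log2 ratio of 2.63 (2.07 to 3.23). With cells thinned to 4000 UMIs before gating, these log2 ratios were 2.97 in cycling and 1.93 in non-cycling CD4 cells. The unthinned intervals of Tspan3 in CD4 cells overlapped that of non-cycling CD8 cells, at 2.38 (2.12 to 2.65). Over all CD4 cells, Tbc1d4 was at 50.6 CPM (237 UMIs) and 93.5 CPM (467 UMIs), a log2 ratio of 0.89 (0.66 to 1.12) beside 2.44 (2.28 to 2.60) in CD8 cells. Lysmd2 was at 12.4 CPM (58 UMIs) and 22.6 CPM (113 UMIs), a log2 ratio of 0.87 (0.40 to 1.35) beside 2.29 (2.18 to 2.41) in CD8 cells. Art2b was at 31.8 CPM (149 UMIs) and 54.7 CPM (273 UMIs), a log2 ratio of 0.78 (0.49 to 1.08) beside 1.41 (1.30 to 1.51). For these 3 genes the counting intervals over all CD4 and all CD8 cells did not overlap, but with no replicate the difference between the ratios was not tested. How many of all genes had intervals apart in this way was not counted. Among non-cycling cells alone, the intervals of Art2b did overlap, at 0.82 (0.35 to 1.30) in CD4 and 1.49 (1.28 to 1.71) in CD8 cells. For Lysmd2 in non-cycling CD4 cells, with 20 and 36 UMIs, the interval of the log2 ratio of 0.64 spanned 0 (-0.18 to 1.51), so a difference between the days was not detectable at this depth.

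**Figure D2:**
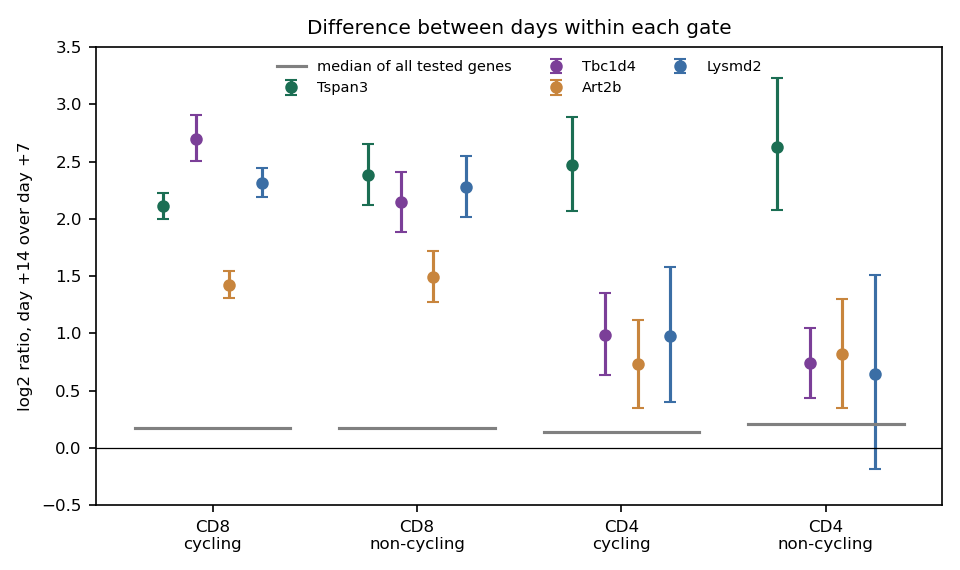
Log2 ratio of day +14 over day +7 for the 4 genes in each of 4 gates (x axis), with exact 95% counting intervals, and the median of all genes tested in that gate as a grey line. The ratios of Tspan3 lie between 2.11 and 2.63 in all of the 4 gates, while those of Tbc1d4, Art2b and Lysmd2 lie between 0.64 and 0.99 in the CD4 gates and between 1.42 and 2.70 in the CD8 gates.

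The order of the 8 combinations of gate and day differed between the genes. For Tspan3, the 4 gates of day +14 stood above the 4 of day +7. They ran from non-cycling CD4 at 132 CPM (115 to 151) through cycling CD4 and non-cycling CD8 to cycling CD8 at 56.3 CPM (54.4 to 58.2), with no overlap between neighbours, whereas the neighbours of day +7 overlapped. For Tbc1d4, non-cycling CD4 cells came highest on either day, at 163 CPM (144 to 184) and 97.9 CPM (82.2 to 116), so that their day +7 level lay above every other gate of day +14. Cycling CD8 cells of day +7 came lowest, at 4.03 CPM (3.53 to 4.57). Non-cycling CD8 and cycling CD4 cells of day +14, at 60.7 and 60.0 CPM, did not differ beyond their intervals, nor did cycling CD4 cells of day +7, at 30.2 CPM, and cycling CD8 cells of day +14, at 26.1 CPM. For Art2b, non-cycling CD4 and CD8 cells of day +14 shared the top, at 71.4 CPM (59.0 to 85.6) and 61.8 CPM (56.6 to 67.3), with overlapping intervals. Cycling CD8 cells of day +7, at 13.7 CPM (12.7 to 14.7), stood below the rest. For Lysmd2, the 2 CD8 gates of day +14, at 63.1 CPM (57.9 to 68.6) and 51.3 CPM (49.5 to 53.2), stood apart, and each of the other 6 overlapped its neighbour, from 22.9 CPM in cycling CD4 cells of day +14 to 10.3 CPM in cycling CD8 cells of day +7.

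**Figure D3:**
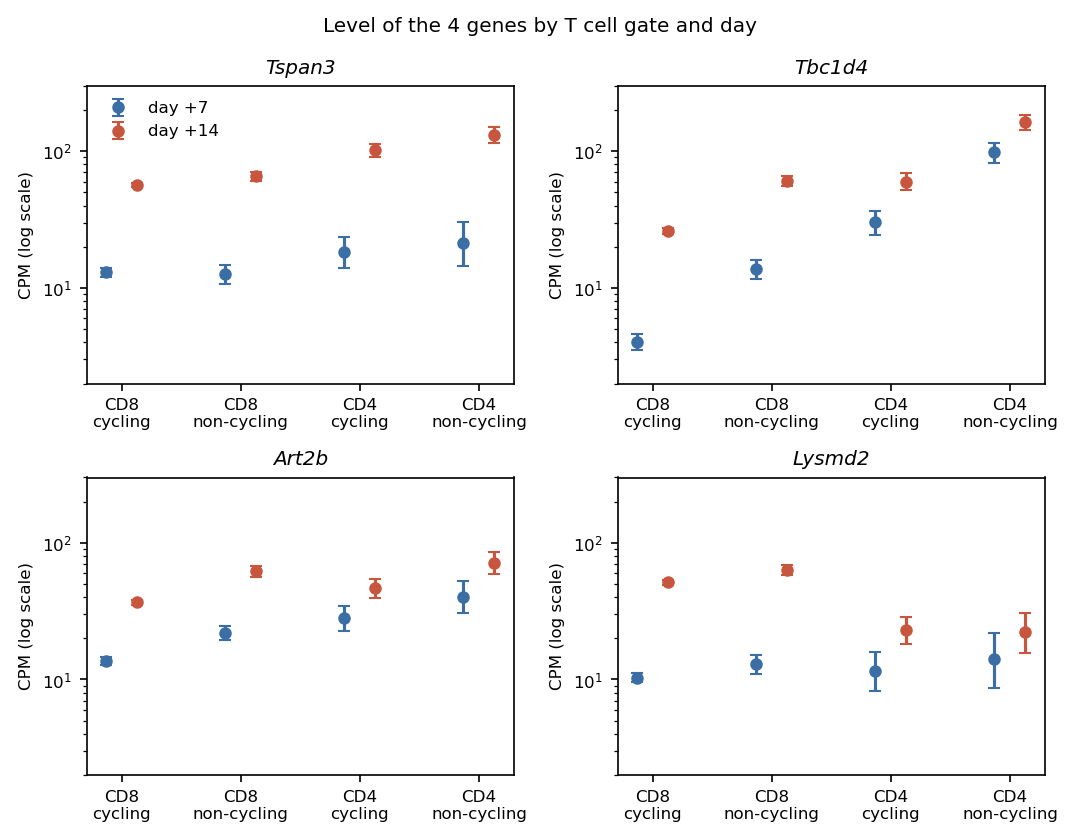
CPM of each gene (log scale) in 4 gates at day +7 (blue) and day +14 (red), with exact Poisson 95% intervals from 1 library per day. Tbc1d4 spans the widest range, from 4.03 to 163 CPM, and Lysmd2 is the gene whose CD4 cells lie below CD8 cells at day +14, at 22.9 and 22.1 CPM beside 51.3 and 63.1 CPM.

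CD4 and CD8 cells of the same library were set side by side within each day. Tbc1d4 was higher in CD4 cells on both days, by 8.97-fold at day +7 (log2 3.17, lower bound 2.93) and by 3.06-fold at day +14 (log2 1.61, 1.47 to 1.76). Art2b was also higher in CD4 cells, by 2.11-fold at day +7 and 1.37-fold at day +14. Tspan3 was higher in CD4 cells by 1.48-fold at day +7 and 1.94-fold at day +14. Lysmd2 took another course. At day +7 its level in CD4 cells, 12.4 CPM, and in CD8 cells, 10.8 CPM, did not differ beyond the interval of their log2 ratio (0.20, -0.21 to 0.59). At day +14 it was at 22.6 CPM in CD4 and 52.8 CPM in CD8 cells, a log2 ratio of -1.22 (-1.51 to -0.95). The CD4 cells of day +14 were the shallower, with a median of 5340 UMIs beside 8638 in CD8 cells, and the part of depth in these ratios was not tested.

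Across bins of cell cycle UMIs, Tbc1d4 was the most graded gene, and Tspan3 varied less and in no steady order in CD8 cells. From CD8 cells with under 1 cell cycle UMI per 10000 to those with 50 or more, Tbc1d4 at day +7 was at 26.1, 10.4, 8.95, 3.76 and 1.26 CPM in turn. At day +14 it was at 57.9, 61.7, 44.7, 23.5 and 20.9 CPM in the same bins. CD4 cells had the same direction, from 105 to 8.38 CPM between the outer bins at day +7, and from 163 CPM in the second bin to 35.3 CPM in the fourth at day +14. Over both days, Tbc1d4 was 3.41-fold and 2.32-fold higher in non-cycling than in cycling CD8 cells, and 3.24-fold and 2.72-fold higher in non-cycling than in cycling CD4 cells. Art2b was graded less, from 24.5 to 10.5 CPM at day +7 and from 62.5 to 35.0 CPM at day +14 between the outer bins of CD8 cells. Between the same bins, Lysmd2 went from 16.1 CPM (11.5 to 21.9) to 7.15 CPM (6.00 to 8.46) at day +7. At day +14 it went from 63.4 to 45.2 CPM. Tspan3 lay between 10.4 and 15.7 CPM in the 5 CD8 bins of day +7. In those of day +14 it lay between 50.1 CPM (47.1 to 53.2) in the highest bin and 69.1 CPM (62.8 to 75.9) in the second. In CD4 cells Tspan3 was at 22.9 CPM in the fourth bin and 10.9 CPM in the highest at day +7. At day +14 it was at 134 CPM in the second CD4 bin and 93.4 CPM in the highest. Every CD8 bin was higher at day +14 for each of the 4 genes, which their choice favours. The CD4 bins held an exception, Tbc1d4 in the fourth bin, at 37.7 CPM (27.6 to 50.3) at day +7 and 35.3 CPM (25.6 to 47.3) at day +14. In the same bin Art2b was at 23.8 and 28.8 CPM, with overlapping intervals.

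**Figure D4:**
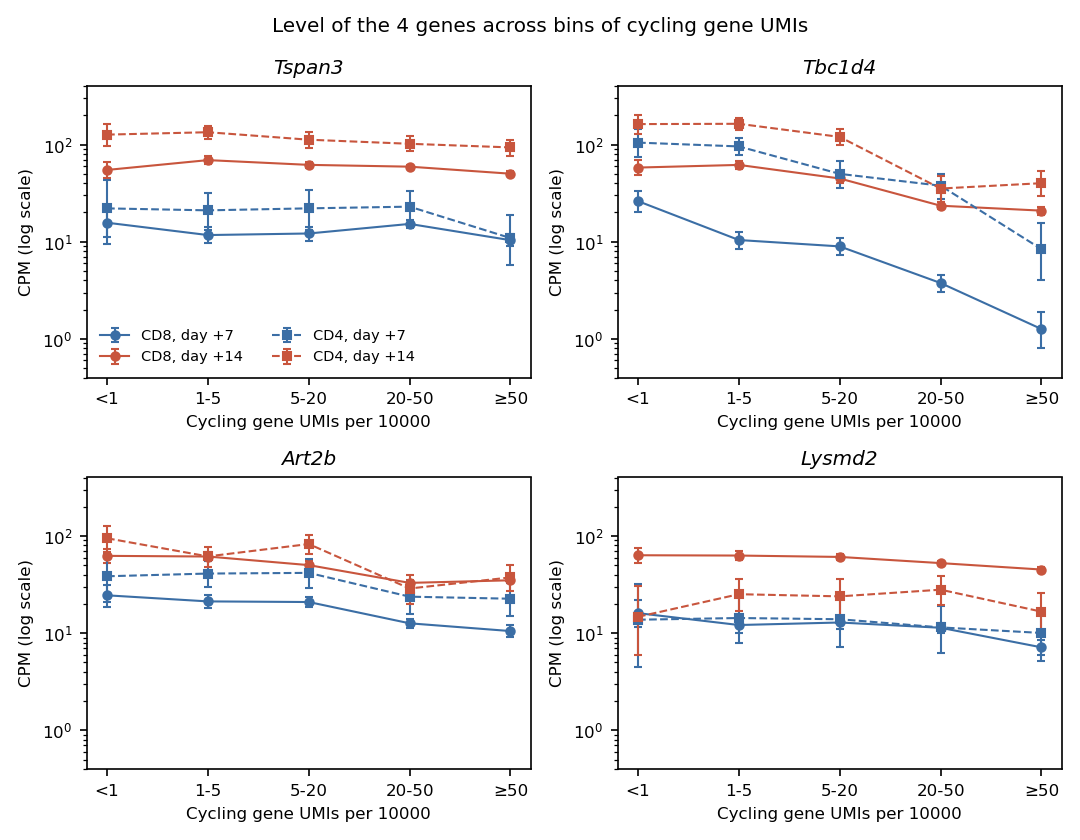
CPM of each gene (log scale) in 5 bins of cell cycle gene UMIs per 10000 UMIs, for CD8 cells (circles, solid lines) and CD4 cells (squares, dashed lines) at day +7 (blue) and day +14 (red), with exact Poisson 95% intervals. Tbc1d4 in CD8 cells of day +7 goes from 26.1 CPM in the lowest bin to 1.26 CPM in the highest, while Tspan3 there stays between 10.4 and 15.7 CPM.

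Among cycling CD8 cells, those with more S phase than G2 and mitosis UMIs numbered 1037 at day +7 and 1435 at day +14, and the opposite class 3154 and 2894. At day +7, Tspan3 was at 18.1 CPM (16.0 to 20.5) in the S phase class and 11.3 CPM (10.3 to 12.3) in the other, and Lysmd2 at 14.5 CPM (12.6 to 16.6) and 8.88 CPM (8.02 to 9.81). At day +14 the gap was smaller for both, at 61.6 and 53.7 CPM for Tspan3 and at 52.1 and 50.8 CPM for Lysmd2. Art2b was at 11.6 CPM (9.90 to 13.5) in the S phase class and 14.3 CPM (13.2 to 15.4) in the other at day +7, with overlapping intervals. Tbc1d4 was at 4.39 and 3.82 CPM at day +7 and at 27.8 and 24.8 CPM at day +14, and its 2 classes overlapped on both days.

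At 4000 UMIs per cell, more cells held a UMI of each gene at day +14. Each cell was thinned to that depth to make the shares comparable, which left 6804 and 6733 T cells and left out 137 and 876 shallower ones. The share of T cells with Tspan3 was 5.09% (4.58 to 5.63) at day +7 and 22.0% (21.1 to 23.1) at day +14. Without thinning it was 13.7% and 42.5%. Lysmd2 was found in 4.23% and 17.7% of thinned cells (10.6% and 33.4% unthinned). The share with Tbc1d4 was 3.75% and 13.4% (7.05% and 24.7% unthinned), and that with Art2b 7.61% and 16.9% (15.5% and 33.1% unthinned). Most positive cells held a single UMI. For Tspan3, 0.206% of the T cells held 2 or more UMIs at day +7 and 3.62% at day +14, and positive cells held 1.05 and 1.20 UMIs on average. Tbc1d4 had the most uneven spread at day +7, with 1.33 UMIs per positive cell. In CD4 cells 5.41% of cells held 2 or more of its UMIs at day +7 and 8.08% at day +14, beside 0.375% and 2.09% of CD8 cells. In CD4 cells, the share with Tspan3 was 7.88% and 34.5%, and that with Lysmd2 6.31% (4.23 to 8.99) and 8.28% (6.01 to 11.1), with overlapping intervals.

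The same shares in other cells of these libraries served as background. At day +7, the macrophage gate of 50 cells, with a median of 4444 UMIs, had Tbc1d4 at 30.4 CPM (12 UMIs, 15.7 to 53.2) and Tspan3 at 27.9 CPM (11 UMIs, 13.9 to 49.9), beside 9.83 and 14.0 CPM in T cells. Each was in 2 of its 30 thinned cells, or 6.67% (0.818 to 22.1), and Art2b and Lysmd2 in 0 of 30, which allows up to 10.0%. The shares of T cells with Tspan3 and Tbc1d4 at day +7 were thus not above those of macrophages. Also at day +7, the erythroid gate, with a median of 32835 UMIs before thinning, had Tspan3 in 5 of 100 thinned cells, with a 95% interval of 1.64% to 11.3%, about that of T cells. Tbc1d4, Art2b and Lysmd2 were in 0 of these 100 cells, which allows a share of up to 3%. The neutrophil gate, with a median of 13812 UMIs at day +7 and 7118 at day +14, had 0 of 40 cells with Lysmd2 at day +7, which allows up to 7.50%, and 4 of 55 cells, or 7.27% (2.02 to 17.6), at day +14. In that gate at day +14, Tspan3 was in 3.64% (0.443 to 12.5) and Art2b in 5.45% (1.14 to 15.1) of cells, and Tbc1d4 in 0 of 55, which allows up to 5.45%. At day +14, T cell shares lay above the upper bound in neutrophils for Tspan3 (22.0% beside 12.5%) and Art2b (16.9% beside 15.1%). For Tbc1d4 the share was 13.4%, beside a limit of 5.45% and a Clopper-Pearson bound of 6.49%. For Lysmd2 the share was 17.7%, but its interval (16.8 to 18.7) held the neutrophil bound of 17.6%. The genes were chosen with their day +14 values known, so this is no test, and the share of all genes above such a bound was not computed. The macrophage and erythroid gates of day +14, with 9 and 15 thinned cells, were too small to set such a bound. As CPM, all 4 genes were also higher at day +14 in the neutrophil gate, on few UMIs. Tspan3 was at 4.20 CPM (3 UMIs) and 30.4 CPM (24 UMIs) there, and Art2b at 1.40 CPM (1 UMI) and 16.5 CPM (13 UMIs). In the macrophage gate, Lysmd2 was at 2.54 CPM (1 UMI) and 45.1 CPM (5 UMIs), while Tspan3 was at 27.9 and 27.0 CPM. Whether the difference between the days is particular to T cells was not tested.

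Cells with several of the 4 genes were more frequent at day +14. At day +7, 83.6% of 5862 thinned CD8 cells held none of them, 881 cells held 1, 75 cells (1.28%) held 2 and 8 cells (0.136%) held 3. At day +14, 49.4% held none, 36.5% held 1, 12.0% held 2, 1.93% held 3 and 0.182%, or 10 of 5502 cells, held all 4. In CD4 cells the share with none was 65.8% at day +7 and 36.6% at day +14. For each of the 6 pairs in CD8 cells, the share with the second gene was higher among cells with the first than among cells without it on both days, and for 2 of the 6 pairs at day +14 the intervals did not overlap. Tbc1d4 was in 13.9% (11.9 to 16.1) of day +14 CD8 cells with Tspan3 and 10.7% (9.80 to 11.7) of those without, and in 14.0% (12.0 to 16.3) of those with Lysmd2 and 10.7% (9.80 to 11.6) of those without. In CD4 cells the share was higher with the other gene for 4 of the 6 pairs on each day, and no intervals stood apart. Lysmd2, for instance, was in 6.43% of day +14 CD4 cells with Tspan3 and 9.26% of those without. These are small differences in sparse counts, and the cells share a library. The same shares were not computed for other pairs of genes, and the CD8 and CD4 cells here include cycling and non-cycling ones. Whether the pairs are particular to the 4 genes was not tested.

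**Figure D5:**
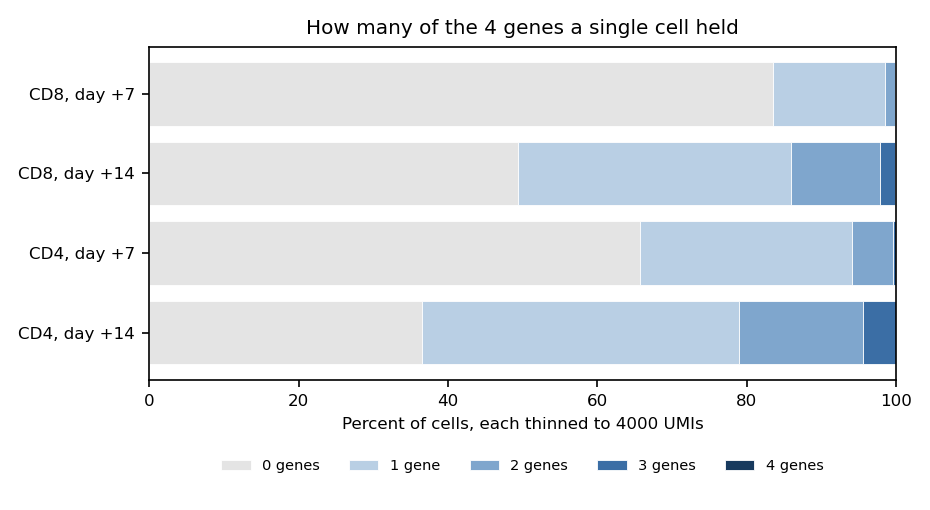
Percent of CD8 and CD4 cells at each day, thinned to 4000 UMIs, that held UMIs of 0, 1, 2, 3 or 4 of the genes (light to dark). The share with none is 83.6% and 49.4% in CD8 cells and 65.8% and 36.6% in CD4 cells at day +7 and day +14.

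Non-cycling CD8 cells were then split by a UMI of 7 genes of T cell state, at 4000 UMIs per cell (1615 cells at day +7 and 1233 at day +14). Of 56 comparisons over 4 genes, 7 partners and 2 days, the interval of the log2 ratio lay above 0 in 7, below 0 in 6 and spanned 0 in 43. The same comparisons were not run for other genes, so these counts have no share over all genes beside them. Tbc1d4 accounted for 5 of the 7 above 0. It was higher in cells with Tcf7, a transcription factor of naive and stem-like T cells, at 42.7 CPM with and 13.9 CPM without it at day +7 (log2 1.62, 0.69 to 2.45) and at 114 and 52.9 CPM at day +14 (log2 1.11, 0.66 to 1.54). It was also higher with Xcl1, a chemokine, on both days, at 94.9 and 51.1 CPM at day +14 (log2 0.89, 0.51 to 1.27). With Tox, a transcription factor of exhausted T cells, it was higher at day +14, at 66.9 CPM with and 44.1 CPM without it (log2 0.60, 0.22 to 1.00). Tspan3 was higher with Tcf7 at day +14 (log2 0.74, 0.27 to 1.20). Tspan3 was lower in cells with Gzma, a granzyme, on both days, at 9.74 and 18.9 CPM at day +7 (log2 -0.96, -1.66 to -0.22) and at 40.7 and 66.8 CPM at day +14 (log2 -0.72, -1.34 to -0.14).

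Lysmd2 was likewise lower with Gzma on both days, with log2 ratios of -0.79 (-1.47 to -0.08) and -0.55 (-1.13 to -0.01), and at day +14 it was lower with Tox (log2 -0.38, -0.70 to -0.05), where Tbc1d4 and Art2b were higher. Art2b was higher with Tox at day +14, at 67.5 CPM with and 49.8 CPM without it (log2 0.44, 0.07 to 0.82). With Ifng, which encodes interferon γ, Tspan3 was lower at day +14, at 51.8 and 73.0 CPM (log2 -0.50, -0.84 to -0.16). For Il7r, which encodes the IL-7 receptor, and Pdcd1, which encodes PD-1, the intervals of all 4 genes spanned 0 on both days. The share of non-cycling CD8 cells with Gzma was 77.9% at day +7 and 13.5% at day +14, with Tox 22.5% and 64.6% and with Tcf7 5.08% and 9.57%. Within cells with Gzma, Tspan3 was at 9.74 and 40.7 CPM on the 2 days, and within cells without Tox Lysmd2 was at 13.4 and 76.7 CPM.

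In the Foxp3+ gate within CD4 cells, 20 cells at day +7 and 14 at day +14 were too few to report. T cells with a Foxp3 UMI, whatever their Cd4 and Cd8 UMIs, numbered 199 and 90, a class chosen after the data were seen. Only the 20 and 14 cells above were CD4 by the gate, so the values of this class are not those of regulatory T cells alone. There Tspan3 was at 17.9 and 46.2 CPM, Art2b at 23.6 and 62.2 CPM and Lysmd2 at 8.31 and 38.6 CPM. Tbc1d4 was at 1.66 CPM (5 UMIs, 0.539 to 3.88) and 11.3 CPM (12 UMIs, 5.84 to 19.7). This was below its level over all T cells and below that of CD8 cells, 5.64 and 30.6 CPM, on both days.

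The genes whose pattern over the 8 combinations of gate and day was most like each member were sought by Pearson's r of log2(CPM + 1), among 3304 genes at 50 CPM or more in at least 1 of them. The 8 points share 2 libraries and the r values are descriptions. For Tspan3 they included Csnk1a1, Aebp2, Eml4 and Fam129a, each at an r of 0.99. For Tbc1d4 they were Bcl2a1b (0.99), Zfp36l1 (0.98), Inpp4b (0.97), Map4k4 (0.97) and Casp4 (0.96). Art2b had Gramd1b (0.98) and, at 0.97 each, Ei24, Syt11, Lgals3bp and Bcl11b. Lysmd2 had Eef1a1 and Cd7 (0.95 each) and Sh2d2a, Ppm1b and Cdk6 (0.94 each). Between the members, r was 0.93 for Tbc1d4 and Art2b, 0.86 for Tspan3 and Art2b and 0.37 for Tbc1d4 and Lysmd2, the lowest of the 6 pairs.

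Relatives of the 4 genes were counted over all T cells, where 74.4% of all 6874 genes were above 0 on the log2 scale with 1 CPM added. Of 10 other tetraspanins with a mean of at least 10 CPM, 8 were above 0 on the log2 scale, with a median of 0.31 beside 0.19 for all genes. Of these, 1 was at least 2-fold higher at day +14, Cd81, a co-receptor of lymphocytes, at 4.43 and 31.4 CPM (log2 2.82, 2.67 to 2.99). Cd81 and the other related genes under 50 CPM are named here with their values seen. The tetraspanins at 50 CPM or more were Cd82 (142 and 228 CPM, log2 0.68), Tspan32 (0.35), Cd37 (0.03), Cd53 (-0.02) and Cd9 (125 and 103 CPM, log2 -0.28). Of 16 other Rab GTPase-activating proteins with a TBC domain, none was 2-fold higher or lower with 1 CPM added, 12 were above 0 and the median was 0.30. Tbc1d1, the closest relative of Tbc1d4, was at 45.1 and 53.3 CPM (log2 0.24, 0.18 to 0.30), Rabgap1l at 48.4 and 71.4 CPM (log2 0.56) and Tbc1d10c at 162 and 155 CPM (log2 -0.07).

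Of 14 genes between Akt and glucose transporter traffic, 1 was 2-fold higher at day +14, the glucose transporter gene Slc2a1, at 11.6 and 27.6 CPM (log2 1.25, 1.14 to 1.36), and the median of the list was 0.30. The kinase genes Pik3cd (log2 0.58) and Akt1 (0.39) were above the median of all genes, as was Rab10 (0.40), a Rab protein that Tbc1d4 inactivates. Those near or below it were Ywhaz (0.12), Rab14 (0.08), Rab8b (0.06), Pik3r1 (0.05), Ywhab (-0.09) and Rab8a (-0.22). The insulin-responsive transporter gene Slc2a4 had 0 UMIs in the T cells of both libraries. Around Art2b, 6 of 6 tested genes of NAD, ADP-ribosylation and P2X7 were above 0, with a median of 0.41. Of the 6, 1 was 2-fold higher, the NAD glycohydrolase gene Cd38, at 14.2 and 39.4 CPM (log2 1.47, 1.38 to 1.57). P2rx7, which encodes the P2X7 channel, had a mean under 10 CPM and was at 2.08 CPM (170 UMIs) and 10.1 CPM (834 UMIs), a log2 ratio of 2.28 (2.04 to 2.53). Of 3 other LysM genes tested, none was 2-fold higher and the median was 0.30. Lysmd3, the relative under 0, was at 16.9 and 12.1 CPM (log2 -0.48, -0.60 to -0.36).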

How the data were processed

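The deposited files hold raw UMI counts per gene and barcode, which the authors made with Cell Ranger 6.1.2 on mm10 per the labels' processing notes, with no normalization. The members and all lists were chosen with earlier results of these data known. Counts were read in Python 3.11.15 with numpy 2.4.6, scipy 1.17.1, pandas 2.3.3 and scanpy 1.11.5, and figures drawn in matplotlib 3.10.9. Barcodes with at least 100 neutrophil, 20 macrophage or 20 erythroid list UMIs per 10000 were gated apart from T cells. Scrublet marked 0 of 7179 and 0 of 7794 barcodes, so the caller did not work and doublets were not removed. Gates under 50 cells were used only for background shares and levels or, for Foxp3+ cells, not reported, and no gate used a member gene. UMIs were summed per gate and scaled to the total of its cells. Intervals were exact Poisson for CPM, exact conditional binomial for ratios and Clopper-Pearson for shares, and cover counting error only. With 1 library per day no test was run. Ratios of all genes had 1 CPM added. A floor was 3 counts of the total, and the limit given for a share of 0 cells was this floor, not the Clopper-Pearson bound. Ratio and interval steps were tested on simulated data. Genes named were the members, the 5 most alike genes of each, related genes whose higher day reached 50 CPM and the state partners, besides those said to be named with their values seen, and 1 state partner and 1 alike gene are not reported here. Alternatives covered scaling, filters, gates, depth and doublet scores.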

Additional observations from a re-analysis of the deposited data

How the results depend on the processing

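No paired analysis was possible because each day has 1 library, so no replicate could be left out either. The log2 ratios of the 4 members were above 0 in every alternative run, over all T cells and in each gate. Their log2 ratios over all T cells ranged from 1.97 to 2.45 for Tspan3, 1.09 to 2.06 for Tbc1d4, 1.06 to 1.34 for Art2b and 1.70 to 2.21 for Lysmd2. Cells thinned to 4000 UMIs gave 2.32 for Tspan3, 1.82 for Tbc1d4 and 1.19 for Art2b. Scaling by the median ratio, which shifts every log2 ratio down by 0.23, gave 1.97, 1.71 and 1.08 for these and 1.93 for Lysmd2. The mean of single-cell CPM gave 2.36 for Tspan3 and 2.06 for Tbc1d4. Leaving out the 5% of cells with the most UMIs gave 2.31 for Tspan3. Equal weight for 4 gates, since the Foxp3+ gate was too small, gave 2.45 for Tspan3, 1.09 for Tbc1d4, 1.06 for Art2b and 1.70 for Lysmd2, the gates' own ratios being those of the report. The count of 132 genes was 84 with median ratio scaling, 27 with a mean of at least 50 CPM and 429 with no filter on low values, the last 2 of which test fewer and more genes. The remaining 40 values over all T cells stayed within their limits, which were the main counting interval for a ratio and 1.5 times the main count for the number of genes, whose other values ran from 88 to 189. Among them were those without the 20 shared barcodes and without T cells with both Cd4 and Cd8 UMIs, which were chosen after seeing the data. Within gates 12 of 80 values moved beyond their interval, among them Tbc1d4 in non-cycling CD4 cells at 0.37 with cycling cut at 3 per 10000 and Art2b in cycling CD4 cells at 0.32 after thinning. The cause was not tested. Intervals cover counting error only, and depth limits the CD4 values most, where Lysmd2 had 20 and 36 UMIs in non-cycling cells.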
